A study of Rattus norvegicus with 50 samples.

Results

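The genes described here are those of MHC class II antigen presentation in rat whole blood, followed in 10 rats over 28 days. They were listed by name as 9 genes: RT1-Da, RT1-Db1, RT1-Ba, RT1-Bb, RT1-DMa, RT1-DMb, Cd74, Ciita and Ctss. A gene was taken as measured where a probe set of the array carries its symbol and no other, which held for 7 of the 9 genes, with 1 probe set each among 36685. Ciita and Ctss had no such probe set and are not analysed here. The set was chosen because its change from day 0 to day 28 was higher in treated than in naive rats, so that difference is described below without a test.

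Male Wistar rats received an injection of monosodium iodoacetate (MIA), an inhibitor of glycolysis that damages cartilage cells, into the right knee joint (6 rats) or were left intact as naive controls (4 rats). Blood was drawn from the tail vein of every rat on day 0, before the injection, and on days 2, 14, 21 and 28, which gave 50 arrays in 10 groups of treatment and day. The naive rats received no vehicle, so an effect of MIA and an effect of the injection itself cannot be told apart. The ages of the rats are not given in the sources used here. The array of MIA replicate 4 at day 21 stood apart and was left out of all values unless stated: its log2 signals had an SD of 1.00, against 1.80 to 1.99 on the other 49 arrays, and its mean correlation with them was 0.243, against 0.934 to 0.968 among the 49. On that array Cd74 had a log2 signal of 4.43, where the others lay between 9.87 and 11.02.

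Class II molecules are pairs of an alpha and a beta chain on the surface of antigen-presenting cells, which in blood are chiefly B cells, monocytes and dendritic cells. They carry peptides made in endosomes and show them to CD4 T cells. New pairs are held by the invariant chain, encoded by Cd74, until the chain is cut and its last fragment is exchanged for a peptide by the DM molecule. In the rat the complex is called RT1, with RT1-D and RT1-B as its classical molecules and RT1-DM as the exchange factor. Cells that make class II switch these genes on together through Ciita, a co-activator that is held at the X and Y boxes of their promoters by the RFX, CREB and NF-Y factors.

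The chain genes lie close together on chromosome 20 of the GRCr8 assembly, as RefSeq places them. RT1-Da, the alpha chain of RT1-D, spans 4515393 to 4520387, and RT1-Db1, a beta chain of RT1-D, spans 4550594 to 4560182. RT1-Ba and RT1-Bb, the alpha and beta chains of RT1-B, span 4577057 to 4581650 and 4598475 to 4604118. The beta chain gene RT1-DMb spans 4695009 to 4702560 and the alpha chain gene RT1-DMa spans 4708932 to 4712335. Cd74 stands apart on chromosome 18, from 56527071 to 56536406.

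The promoters of 4 members are shown, picked with the expression results below known. Cd74 and RT1-Da rose, RT1-Ba is a chain of the second classical molecule, and RT1-Db1 did not follow the others. A link between promoter letters and expression was not tested. Each sequence is the RefSeq (GRCr8) stretch from 120 to 21 bases before the start site given for the gene, 5′ to 3′ on the strand of the gene. That of Cd74 lies inside the span given above, which begins at an earlier start. The start sites used for RT1-Da and RT1-Db1 also lie inside the spans given for them. Capitals mark GCAAC, a core of the X box, TGACG and TGATG, cores of the part of the X box that CREB binds, and ATTGG, the core of the Y box, on either strand.
Cd74, chr18:56527086-56527185, plus strand: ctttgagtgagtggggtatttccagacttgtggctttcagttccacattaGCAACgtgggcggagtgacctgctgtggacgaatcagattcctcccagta
RT1-Da, chr20:4515295-4515394, plus strand: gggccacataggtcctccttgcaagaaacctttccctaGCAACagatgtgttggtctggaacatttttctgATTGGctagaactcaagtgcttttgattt
RT1-Ba, chr20:4576937-4577036, plus strand: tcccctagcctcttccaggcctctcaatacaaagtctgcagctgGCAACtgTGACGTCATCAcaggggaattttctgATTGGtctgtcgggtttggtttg
RT1-Db1, chr20:4560183-4560282, minus strand: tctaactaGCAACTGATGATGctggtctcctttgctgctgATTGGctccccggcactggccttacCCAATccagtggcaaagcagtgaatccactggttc

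In RT1-Da, RT1-Ba and RT1-Db1 the letters GCAAC were followed by ATTGG on the strand of the gene, with starts 33, 33 and 32 bases apart. Counted over the 250 bases before the start site, this order with starts 30 to 35 bases apart was found in 37 of 33469 rat promoters (0.111%), and the distance was chosen after the sequences had been seen. Of these 37 promoters, 7 belonged to RT1 class II genes, 4 of them outside the members. Among the 6 member promoters in the RefSeq table, GCAAC stood within the 100 bases of 4 and ATTGG within those of 5, against 13.3% and 17.6% of all promoters. TGATG, which overlaps TGACG in RT1-Ba, was found in 3 of 6 and TGACG in 1 of 6, against 16.8% and 9.57%. In the window of Cd74 only GCAAC was present, while RT1-Bb held ATTGG without GCAAC. RT1-DMb was not matched in the table. A match of letters is not a binding site, and RT1-Db1 carried the same arrangement as RT1-Da.

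Over all rats, 2 of the 7 class II genes rose by day 28: Cd74, the invariant chain, and RT1-Da, the alpha chain of RT1-D. The other members ranged from -0.01 to 0.27 on the log2 scale and did not pass the test. Cd74 in the 4 naive rats had log2 signals of 10.47, 10.38, 10.46 and 10.56 at day 0 and of 10.67, 10.80, 10.90 and 10.94 at day 28. In the 6 MIA rats its lowest, median and highest signals were 9.93, 10.40 and 10.54 at day 0 and 10.36, 10.85 and 11.02 at day 28. The values of both days did not overlap in naive rats and overlapped in MIA rats, where MIA replicate 2 was the lowest on each day. Measured within each rat, Cd74 was higher at day 28 than at day 0 in 10 of 10 rats, by 0.20 to 0.50.

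RT1-Da in the naive rats stood at 8.36, 8.29, 8.54 and 8.64 at day 0 and at 8.52, 8.80, 8.56 and 9.00 at day 28. In the MIA rats the lowest, median and highest signals were 7.76, 8.34 and 8.57 at day 0 and 8.24, 8.83 and 9.10 at day 28. The values of both days overlapped in each treatment, yet within each rat RT1-Da was higher at day 28 in 10 of 10, by 0.01 to 0.69. The smallest of these differences, 0.01, was that of naive replicate 3.

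The test of the change was fitted with limma across all 36685 probe sets, with the changes of MIA and naive rats weighted 0.6 and 0.4 by the number of rats. The resulting comparison is uncorrelated with the difference between treatments that chose the genes. At day 28 Cd74 was higher by 0.42 (SE 0.10, limma adjusted p = 0.00377), a fold of 1.34, and RT1-Da by 0.40 (SE 0.13, limma adjusted p = 0.0397), a fold of 1.32. The count of 2 of 7 stands beside 13.0% of all probe sets called at that day, with 8.00% called higher and 4.97% lower. These shares include 21032 unnamed probe sets, whereas all members are named. On the 14824 probe sets with 1 symbol alone, the number called stayed within 1.5 times of 4758. The share called was therefore larger among named probe sets than 13.0%, by an amount not given here. The count of 2 of 7 is not read as above that share. The members' median change was 0.25, and that of all probe sets was -0.03. The members' median was 0.13 after the arrays were normalized again by quantiles and 0.14 without naive replicate 4. This fit has no term for each rat. In it the call of RT1-Da was lost when any 1 of 9 rats was left out (limma adjusted p = 0.0554 to 0.0979). That call was kept without MIA replicate 2 (0.0167), whereas that of Cd74 was kept without any single rat (0.000417 to 0.0173). With the array of MIA replicate 4 at day 21 kept in the fit, neither passed (adjusted p = 0.616 for Cd74 and 0.695 for RT1-Da) at the same changes of 0.42 and 0.40.

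Among the members that did not pass, the estimates of the same limma fit were 0.25 for RT1-Ba (adjusted p = 0.197), 0.27 for RT1-Bb, 0.18 for RT1-DMb (0.376) and 0.08 for RT1-DMa (0.796). RT1-Db1, at -0.01 (SE 0.15, adjusted p = 0.971), was higher in 5 rats and lower in 5. With a term for each rat, the limma adjusted p at day 28 was 2.83e-07 for Cd74 and 3.47e-05 for RT1-Da. RT1-Ba passed there as well (adjusted p = 0.0456), beside 15.3% of all probe sets. RT1-Ba was higher in 8 of 10 rats at day 28, by up to 0.63.

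**Figure D1:**
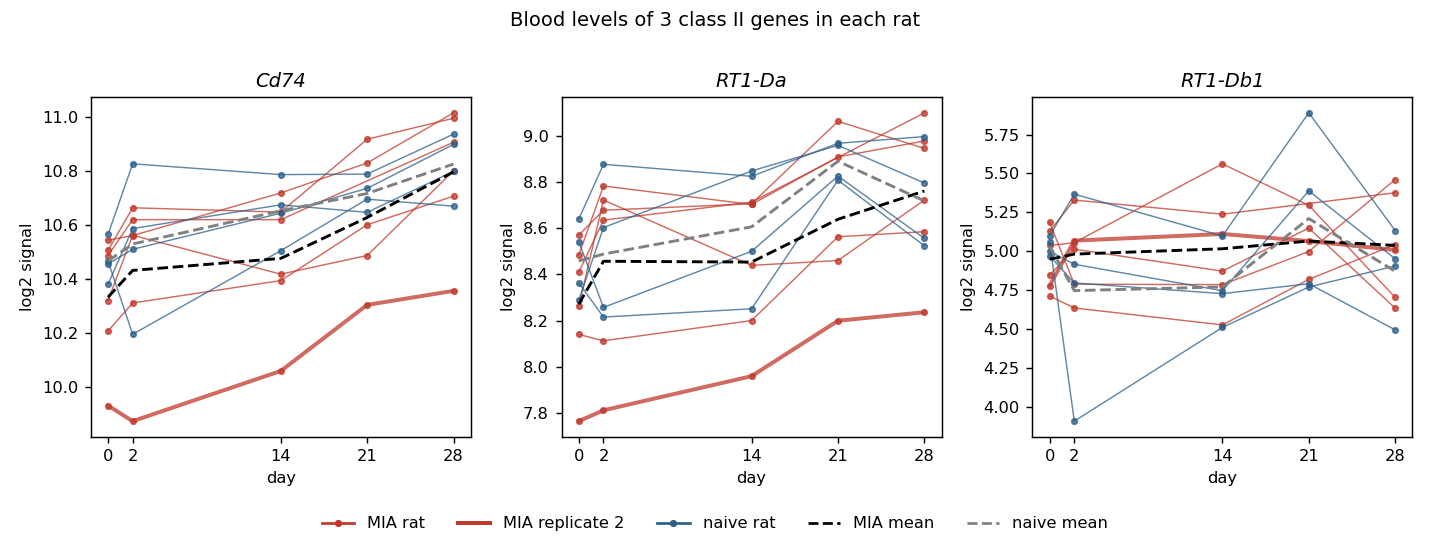
Log2 signals of Cd74, RT1-Da and RT1-Db1 (vertical axes, each with its own range) by day of blood sampling. Each thin line is 1 rat, the thick line is MIA replicate 2 and the dashed lines are the means of the 6 MIA and 4 naive rats. Cd74 and RT1-Da ended above their day 0 signal in 10 of 10 rats, MIA replicate 2 was the lowest rat on each day in both genes, and RT1-Db1 was higher in 5 rats and lower in 5.

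No member was called at the earlier days. At day 2 the 7 members changed over all rats by -0.09 to 0.25 and at day 14 by -0.06 to 0.17, with no call (smallest limma adjusted p = 0.998 and 0.644). Of all probe sets, 0% passed at day 2 and 0.00273% at day 14, although 1839 and 3459 had an unadjusted p under 0.05. Cd74 was nevertheless above its day 0 signal in 10 of 10 rats at day 14, by 0.04 to 0.29.

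At day 21 RT1-Da was higher by 0.39 (SE 0.14, limma adjusted p = 0.0802) and Cd74 by 0.28 (SE 0.10, limma adjusted p = 0.106), each in 9 of 9 rats. Neither was called, although both had an unadjusted p under 0.05 (0.00618 and 0.0103), while 4.82% of all probe sets were, 1.49% higher and 3.33% lower. RT1-Da stood at 8.81, 8.96, 8.83 and 8.97 in the naive rats at day 21, above its 4 naive signals of day 0, and had a lowest, median and highest signal of 8.20, 8.56 and 9.06 in 5 MIA rats. With a term for each rat, which removes the standing differences between rats, both were called at day 21 (RT1-Da adjusted p = 4.59e-05, Cd74 0.000299), where 7.49% of all probe sets passed. With the rat as a random block both stayed short of the threshold (0.0561 and 0.0767). That fit used the same correlation within a rat, 0.0319, for all probe sets. After the group means were removed, the rat accounted for 86% of the remaining spread of RT1-Da and 88.4% of that of Cd74. The random block therefore took little account of the pairing of arrays by rat in these genes. With the array left out put back, the day 21 changes turned to -0.32 in RT1-Da and -0.34 in Cd74.

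**Figure D2:**
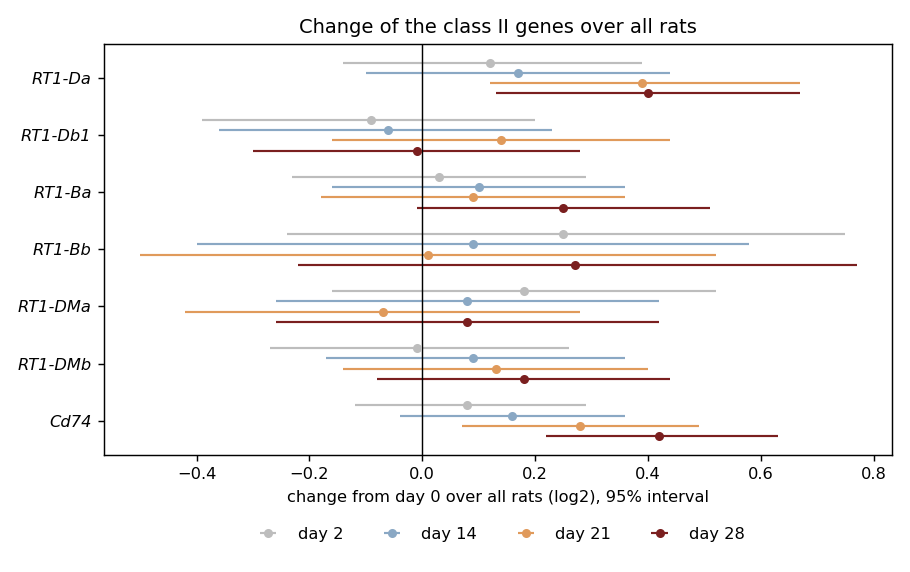
Change from day 0 over all rats (horizontal axis, log2) of the 7 measured class II genes, with the 95% interval of the limma fit and a colour for each day. At day 28 Cd74 lay at 0.42 and RT1-Da at 0.40 with intervals above 0, while the interval of RT1-Db1 was centred on -0.01.

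Day in this comparison stands for the time since the first sampling, which the age of the rats and the number of earlier bleedings share, and these cannot be told apart. The naive rats alone, which were not injected, showed Cd74 higher at day 28 by 0.36 and RT1-Da by 0.26.

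The difference between treatments chose the genes and is given as a description. From day 0 to day 28 the MIA rats changed by 0.09 to 0.49 and all 7 members lay above 0, with a median of 0.38. The naive rats changed by -0.16 to 0.36, with a median of 0.03 and 4 of 7 members above 0. The MIA change minus the naive change was 0.41 in RT1-Bb, 0.32 in RT1-Ba, 0.30 in RT1-DMb, 0.29 in RT1-DMa, 0.25 in RT1-Db1, 0.23 in RT1-Da and 0.11 in Cd74. The order differed from that of the change over all rats: Cd74, with the smallest p over all rats, lay nearest to 0 here. Standard errors of these differences were 0.21 in Cd74, 0.27 in RT1-Da and 0.50 in RT1-Bb, and the 95% intervals of all 7 members held 0. Both come from the fit that treats arrays of a rat as independent, so standing differences between rats enter them. Intervals with a term for each rat are not given. In that contrast 0 of 36685 probe sets passed by limma, with 1488 at an unadjusted p under 0.05, and 0 passed with a term for each rat. Nothing is read from it about the members.

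The rats behind these values differed in spread. Their counts come from the day 0 and day 28 values that chose the genes and are a description only. RT1-DMb was above its day 0 signal in 6 of 6 MIA rats at day 28, by 0.19 to 0.46, and in 1 of 4 naive rats. RT1-Ba was above it in 6 of 6 MIA rats, by 0.17 to 0.63, and in 2 of 4 naive rats. Cd74 and RT1-Da were above their day 0 signal in 6 of 6 MIA rats and in 4 of 4 naive rats. RT1-DMa was above it in 5 of 6 MIA and 1 of 4 naive rats, and RT1-Db1 in 4 of 6 and 1 of 4. RT1-Bb ranged from -0.06 to 1.16 in MIA rats and from -0.74 to 1.12 in naive rats, so the ranges of its change overlapped widely.

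The members' median difference was 0.17 on day 2, close to 0 on days 14 (-0.04) and 21 (0.01), and 0.29 on day 28. These days share the day 0 arrays. At day 0, before any injection, 6 of 7 members were lower in the rats later given MIA than in naive rats, with a median of -0.14 (RT1-Bb -0.26, SE 0.35), or -0.05 without MIA replicate 2. At day 28, 6 of 7 were higher in MIA rats, with a median of 0.16. Cd74, at -0.03, was the exception. Without MIA replicate 2 or naive replicate 4, all 7 were higher. Without naive replicate 3 the count fell to 4 of 7. It was 5 or 6 of 7 when any other single rat was left out. The day 28 levels are part of the difference that chose the genes, and most members move together. These counts are therefore a description and no test. The difference in change at day 28 thus contains both the lower start and the higher end. Signals of MIA and naive rats overlapped in each of the 7 members on both days.

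**Figure D3:**
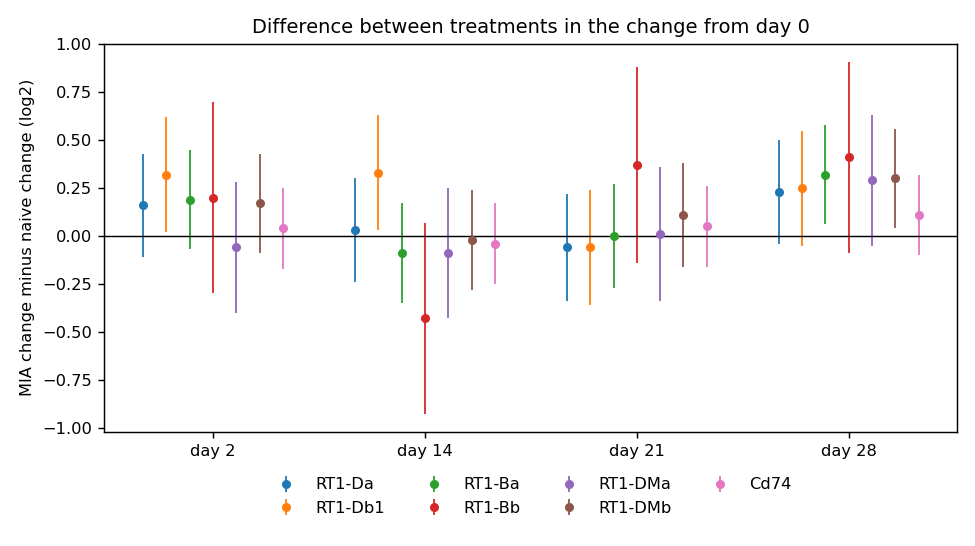
MIA change minus naive change from day 0 (vertical axis, log2) of the 7 class II genes by day, with bars of ±1 standard error of the fit. All 7 points lie above 0 at day 28, from 0.11 to 0.41, which is how the genes were chosen. At day 14, 5 of 7 lie below 0.

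The levels of MIA and naive rats were tested at the days that the choice did not use for its end point. At day 2 the members differed by -0.10 to 0.23 (smallest limma adjusted p = 0.934), and 0 of 7 passed beside 0.00273% of all probe sets. At day 14, 6 of 7 members were lower in MIA rats, and the largest difference was that of RT1-Bb, at -0.69 (SE 0.35, limma adjusted p = 0.931, unadjusted 0.0562). RT1-Bb then stood at 7.55, 7.38, 7.11 and 7.44 in the naive rats and had a lowest, median and highest signal of 5.26, 7.06 and 7.45 in MIA rats. The lowest of these was MIA replicate 2, without which the difference was -0.41, 5 of 7 members were lower in MIA rats, and the members' median was -0.05 in place of -0.16. The groups overlapped, and 0 of 7 members and 0% of all probe sets were called, with 1965 probe sets at an unadjusted p under 0.05. At day 21 the members differed by -0.25 to 0.11, each with an adjusted p of 1, again beside 0.00273%.

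Much of the spread within a group lay between individual rats. After the group means were removed, the rat accounted for 88.4% of the remaining spread of Cd74 and 86.0% of that of RT1-Da. In the other members this share was 73.1% in RT1-Bb, 71.4% in RT1-DMa, 69.3% in RT1-DMb, 67.3% in RT1-Ba and 50.8% in RT1-Db1. Over all probe sets its median was 22.2% and its 95th percentile 53.7%, and the rats make up 20.5% of the degrees of freedom. A high share was not particular to the members. It was 70.4% in RT1-Db2, 58.6% in RT1-DOb and 43% in RT1-DOa, class II genes outside the list. For the mean of a marker list it was 84.6% in red cell precursors, 83.1% in neutrophils, 80.8% in platelets and 74.9% in B cells. In monocytes, T cells, NK cells and dendritic cells it was 62.2%, 55.6%, 51.7% and 11.6%. Averaged over its days, Cd74 ranged between rats from 10.10 to 10.78 and RT1-Bb from 5.99 to 7.65.

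MIA replicate 2 held the low end. It had the lowest signal of all rats in Cd74 and RT1-Da on 5 of 5 days, day 0 included, and in RT1-Ba, RT1-Bb and RT1-DMb on 4 of 5 days. Its mean deviation from the group was -0.93 in RT1-Bb, -0.52 in RT1-Da, -0.46 in RT1-Ba and -0.43 in Cd74, and 0.00 in RT1-Db1. It also had the lowest B cell markers, with a deviation of -0.55, while its monocyte markers deviated by -0.01. MIA replicate 1, at the high end of RT1-Bb with 0.72, had a B cell deviation of 0.34.

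**Figure D4:**
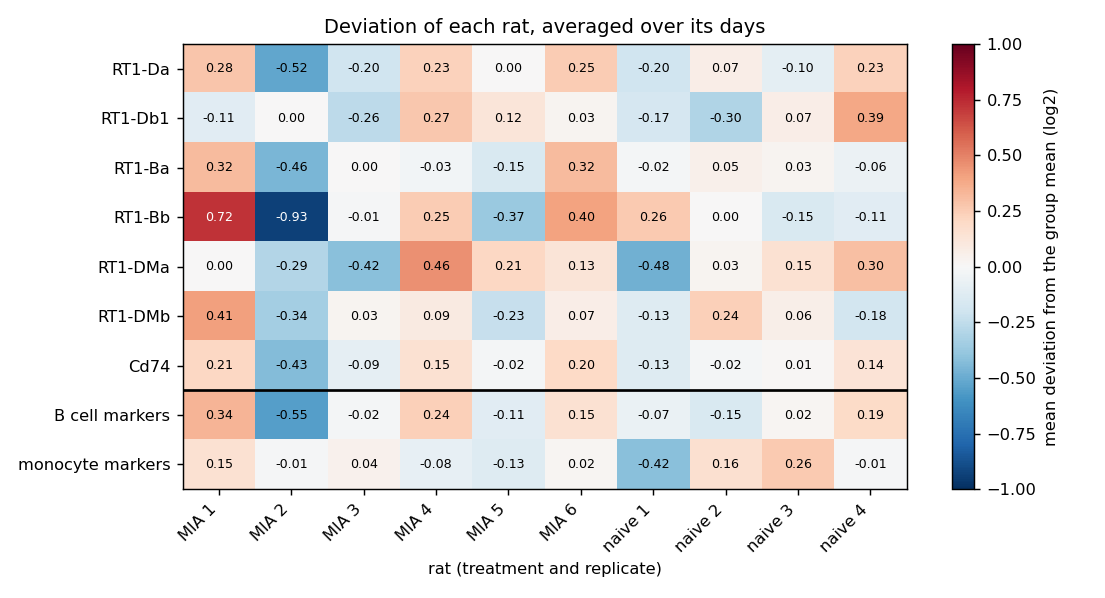
Mean deviation of each rat from its group mean over its days (colour and printed value, log2) for the 7 class II genes and, under the black line, for the means of the B cell and monocyte marker lists. MIA replicate 2 has -0.93 in RT1-Bb and -0.55 in the B cell markers, with -0.01 in the monocyte markers.

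The members followed each other to different degrees across the 49 arrays, which share the 10 rats. Cd74 and RT1-Da had a Pearson r of 0.92, with and without the group means. The 15 pairs without RT1-Db1 had r from 0.14 to 0.92, with a median of 0.58. The 6 pairs with RT1-Db1 ran from -0.27 to 0.28, with a median of 0.06. RT1-Db1 was also the dimmest member, with group means of 4.75 to 5.21, against 8.27 to 8.89 in RT1-Da. Whether its low signal limits its correlations was not tested. Against the mean of the other members, r was 0.85 for RT1-Da and Cd74, 0.66 for RT1-Ba, 0.62 for RT1-Bb, 0.58 for RT1-DMb, 0.40 for RT1-DMa and 0.04 for RT1-Db1. RT1-Db1 and RT1-Db2, a related beta chain gene outside the list, had r = -0.36. RT1 beta chain genes resemble each other in sequence, and whether these probe sets share signal was not tested.

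Genes outside the list were ranked by how closely their signals followed the mean of the members. Among 14550 genes, taken with 1 probe set each, whose median r was 0.03, the highest were Rhoh (r = 0.85), a small GTPase of blood cells, Fcrla (0.82), an Fc receptor-like protein of B cells, Lax1 (0.82), an adaptor of lymphocyte signalling, Fcmr (0.81), the IgM receptor, and Ikzf3 (0.81), a lymphocyte transcription factor. Hvcn1, a proton channel of B cells, Cxcr5, the receptor that leads B cells to follicles, Btla, an inhibitory receptor, and Map3k1, a kinase, each had 0.80, and Ell3, an elongation factor, had 0.78. At the other end stood Dcaf8 (-0.64), Trim31 (-0.64), Cir1 (-0.61), Lpal2 (-0.61) and Oser1 (-0.60). Of the 10 most alike genes, 2 were in the B cell marker list.

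Markers of blood cell types moved with the members. In whole blood, fewer cells of a type and less RNA per cell cannot be told apart. Over the 49 arrays Cd74 had r = 0.80 with the mean of 12 B cell markers, 0.48 with 10 monocyte markers and 0.25 with 9 dendritic cell markers. With the group means removed these became 0.84, 0.23 and 0.05. Markers of cells that do not chiefly present antigen also moved with Cd74: r was 0.56 with NK cells, 0.42 with T cells and -0.67 with red cell precursors, and 0.12, 0.38 and -0.50 with the group means removed. With neutrophils and platelets r was -0.04 and -0.40, and -0.48 with each once the group means were removed. RT1-Da had r = 0.74 with the B cell markers, RT1-Bb 0.75, RT1-DMb 0.63, RT1-Ba 0.60, RT1-DMa 0.38 and RT1-Db1 0.04. RT1-DMb had 0.58 with the monocyte markers.

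**Figure D5:**
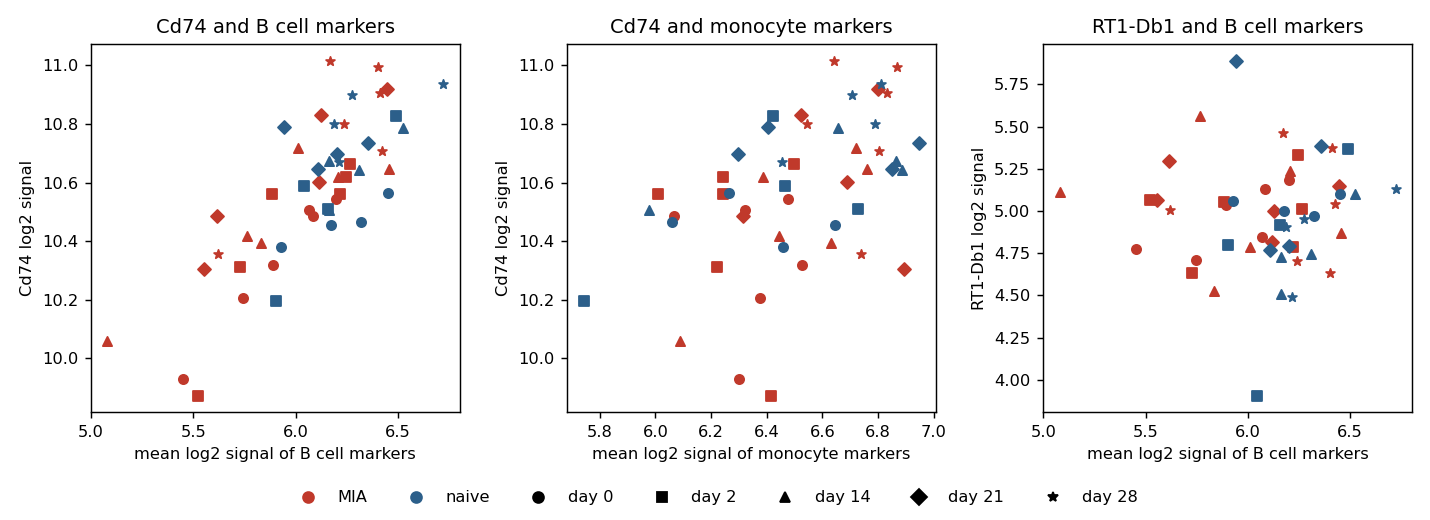
Log2 signal of Cd74 against the mean log2 signal of the B cell markers and of the monocyte markers, and of RT1-Db1 against the B cell markers, with 1 point per array (49 arrays of 10 rats). Colour gives the treatment and shape the day. The correlation is 0.80 for Cd74 and B cell markers, 0.48 for Cd74 and monocyte markers and 0.04 for RT1-Db1 and B cell markers.

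At day 28 over all rats 12 of the 12 measured B cell markers lay above 0, with a median of 0.24, and none was called by limma. Pou2af1, a B cell co-activator, was at 0.35 (adjusted p = 0.141), Vpreb3 at 0.42 (0.187) and Ms4a1, which encodes CD20, at 0.33 (0.207). The summed linear signal of the B cell markers ran from 697 to 1210 in MIA rats at day 0 and from 758 to 1470 at day 28, and in naive rats from 964 to 1520 and from 1160 to 1790. These ranges overlapped.

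Of 10 monocyte markers, 4 rose and none fell, with a median of 0.35. Lyz2, a lysozyme, rose by 0.67 (limma adjusted p = 1.49e-05), Ccr2, a chemokine receptor, by 0.90 (0.00196) and Ly86 by 0.48 (0.0115). Their summed signal lay between 1890 and 2810 in MIA rats at day 0 and between 2960 and 3790 at day 28. In naive rats it lay between 1980 and 2540 and then between 2840 and 3830. The days did not overlap in either treatment. Of 9 dendritic cell markers only Runx2 passed, at 0.27 (limma adjusted p = 0.0499), and the list's median was 0.14. Among other cells, 8 of 9 NK cell markers (median 0.84), 5 of 13 neutrophil markers (median 0.59) and 5 of 13 T cell markers (median 0.37) rose, and 6 of 9 red cell precursor genes fell (median -0.59, summed signal 8240 to 10500 in MIA rats at day 0 and 5590 to 8480 at day 28). The part of these cell types in the changes of Cd74 and RT1-Da was not tested.

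The B cell markers were lower in MIA than in naive rats from the start, though MIA replicate 2 had the lowest of all rats (mean deviation -0.55). Their differences without that rat are not given. At day 28 the mean log2 signal of the 12 markers was 5.619 in that rat. It was 6.17 to 6.425 in the other MIA rats and 6.186 to 6.722 in naive rats. At day 0, before the injection, 0 of 12 were higher (median -0.31), and at days 2 and 21 1 of 12 was (medians -0.16 and -0.15). At day 14, where 6 of 7 members were lower in MIA rats, 0 of 12 B cell markers were higher (median -0.43). At day 28, where 6 of 7 members were higher in MIA rats, 3 of 12 were (median -0.15). None was called at days 2, 14 and 21. Their MIA change minus naive change at day 28 lay above 0 in 11 of 12, with a median of 0.19, and in 7 of 10 monocyte markers, with a median of 0.07. The part of these cells in the members' differences was not tested.

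Class II chains outside the list changed by 0.13 to 0.22, and none was called. RT1-Db2, and RT1-DOa and RT1-DOb, the chains of the DO molecule that restrains DM, changed over all rats at day 28 by 0.22, 0.20 and 0.13 (limma adjusted p = 0.606, 0.521 and 0.795). Their MIA change minus naive change was 0.12, 0.59 and 0.49. The median over the 3 was 0.49, against 0.29 in the members, so the list does not hold all class II genes with a difference above 0.

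Of 11 transcription factors of class II genes, 6 rose and 1 fell over all rats at day 28, with a median of 0.34. Nfyc, a subunit of NF-Y, which binds the Y box, was at -0.46 (limma adjusted p = 0.000931), whereas Nfyb, another subunit, was at 0.41 (0.0273). Bcl6, a repressor of germinal centre B cells, was at 0.58 (0.00115). The RFX subunits Rfx5 (0.42, 0.0359) and Rfxap (0.31, 0.0363) and the factors Creb1 (0.34, 0.0280) and Spi1 (0.43, 0.0358) rose as well and are named here because of their values.

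Endosomal enzymes did not move one way. Of 9 genes, 2 rose and 3 fell. Ctsh, an aminopeptidase of lysosomes, rose by 0.56 (limma adjusted p = 5.19e-05), and Ctsb and Ctsd, proteases that degrade antigen, were at -0.31 (7.71e-05) and -0.44 (0.00128). The summed linear signal of these 9 genes in MIA rats lay between 4870 and 5450 at day 0 and between 4060 and 4640 at day 28.

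Of 8 genes of costimulation and class II turnover, 4 rose and 1 fell, with a median of 0.43. Marchf8, a ubiquitin ligase that removes membrane proteins from the cell surface, was at -0.79 (limma adjusted p = 1.68e-05), and Marchf1, the ligase that removes class II itself, at 0.45 (0.00684). Cd274, the inhibitory ligand PD-L1, rose by 0.64 (0.00182). Of 7 genes of the interferon gamma route, which induces Ciita, 4 rose. Gbp5, a GTPase induced by interferon, rose by 0.60 (limma adjusted p = 0.000422), Jak1, a kinase of the receptor, by 0.44 (0.00100) and Ifngr1, a receptor chain, by 0.54 (0.00327), while Ifng itself, named here outside the rule for lists, was at 0.00 (0.983).

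Class I presentation, which shows peptides of the cytosol to CD8 T cells, had 6 of 15 genes higher and none lower, with a median of 0.22. Psmb9, an immunoproteasome subunit, rose by 0.47 (limma adjusted p = 0.0019), Pdia3, a chaperone of the loading complex, by 0.47 (0.00218) and B2m, the shared light chain, by 0.16 (0.0163). All lists stand beside the 13.0% of all probe sets, named and unnamed, called at day 28. That share was larger among named probe sets, by an amount not given here, and no list was tested as a whole. No count of a list is read as above it.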

How the data were processed

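RNA of whole blood was hybridized to Affymetrix Rat Gene 2.0 ST arrays. The authors subtracted the background, applied quantile normalization and took log2. Their deposited log2 values of 36685 probe sets were used unchanged; the submitters' processing notes name oligo 1.36.1, and how probes were summarized is not given in the sources used here. Symbols came from the platform table, in which 14824 probe sets carry 1 symbol, 829 several and 21032 are unnamed here. The labels give 6 MIA and 4 naive rats, the methods the same number for every group. The labels were followed.

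Group means were fitted to 49 arrays with limma 3.58.1 (R 4.3.3, moderated variance, two-sided) and p-values adjusted by Benjamini-Hochberg over all probe sets at 0.05. The fit treats arrays of a rat as independent. Animal numbers in the labels pair the arrays of a rat. Over all probe sets, their mean correlation after removal of group means was 0.0821 (0.0473 to 0.134 per rat), against -0.0294 between rats. The share of the spread between rats was larger in the members than in the median probe set. Alternatives were the rat as a block, other normalizations, filters, variances and weights, and leaving out each rat.

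Named genes were all measured members, up to 3 per list with the smallest p, and the 10 most and 5 least correlated genes. Rfx5, Rfxap, Creb1, Spi1 and Ifng were named outside this rule, after their values were seen. Members and lists were chosen with earlier results of these data known. Scripts were tested on simulated data. The number of arrays limits the precision.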

Additional observations from a re-analysis of the deposited data

How the results depend on the processing

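The fits with the replicate block (the rat as a random block or as a fixed term) called 9 and 149 of all probe sets at day 14 over all rats, against 1. The fixed term called 2 members and 2748 probe sets at day 21, against 0 and 1770, and added RT1-Ba at day 28 (adjusted p = 0.0456). The block changed no other call of a member, and the fixed term could not be fitted to levels of MIA against naive rats. The random block used the same correlation within a rat, 0.0319, for all probe sets, whatever the share of spread between rats in a gene. With all 50 arrays the day 21 changes over all rats reversed to -0.32 in RT1-Da, -0.03 in RT1-Db1, -0.17 in RT1-Ba, -0.41 in RT1-Bb, -0.12 in RT1-DMb and -0.34 in Cd74, the members' median to -0.30, with 600 probe sets called. On those arrays the day 21 median of MIA against naive rats was -0.58 and that of the difference in change -0.37, the day 28 calls of members fell to 0 of 7 (Cd74 adjusted p = 0.616, RT1-Da 0.695) with 688 probe sets, and 0 were called in MIA against naive rats at days 2 and 21. That array held the lowest signal of each of the 7 members.

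At day 14 over all rats the calls were 17 after quantile normalization again, 26 with arrays shifted to the same median, 0 without dim probe sets, 0 on probe sets with 1 symbol, 8 with a trended robust variance, 17 with array weights and 6 with equal weights of the treatments. At day 21 members called were 1, 2 and 1 after quantile normalization again, the median shift and array weights. On the 14824 probe sets with 1 symbol 1137 passed, and with array weights 3633 of all probe sets passed. With equal weights 1 member was called at day 28 (RT1-Da adjusted p = 0.0614) and RT1-Bb at day 21 was at -0.03. RT1-Db1 at day 28 was at 0.03 after the median shift and RT1-DMa at -0.01 after quantile normalization again. In MIA against naive rats 0 probe sets were called at days 2 and 21 on those with 1 symbol, at day 2 with array weights and at day 21 without dim probe sets. The causes were not tested.

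Leaving out each rat gave 1 to 2 members called at day 28 (2954 to 4825 probe sets, lowest without MIA replicate 3), 0 to 2 at day 21 (843 to 1950, lowest without MIA replicate 3, and both RT1-Da and Cd74 only without MIA replicate 2, adjusted p = 0.0494 and 0.0493) and 1 to 12 probe sets at day 14. The members' median over all rats ran from 0.06 to 0.13, 0.05 to 0.13, 0.06 to 0.17 and 0.14 to 0.29 at days 2, 14, 21 and 28. In MIA against naive rats it ran from -0.07 to 0.10, -0.23 to -0.05 and -0.17 to -0.01 at days 2, 14 and 21, with 0 to 1 probe sets called, and for the difference in change from 0.04 to 0.22, -0.09 to 0.02, -0.06 to 0.08 and 0.21 to 0.32. RT1-Bb at day 21 ran from -0.05 to 0.10, below 0 without MIA replicates 1 (-0.04), 3 (-0.03) and 6 (-0.04) and naive replicates 3 (-0.02) and 4 (-0.05). RT1-Db1 at day 28 ran from -0.04 to 0.04, above 0 without MIA replicates 1 (0.03) and 5 (0.04) and naive replicate 1 (0.03). Of 758 values under alternatives, for 39 results, 659 stayed within the limits set for them (a change, on its side of the threshold and with its sign; a count, within 1.5 times; a median, within 1 SD between rats). A mean over probe sets of a gene gave no other value, since each member has 1. No level of a member in 70 groups of 4 to 6 rats stood apart from its group by Dixon's criterion.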
